A study of Mus musculus with 8 samples.

Results

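CD4+ T cells from mouse spleen that had been kept for 3 days under Treg differentiation conditions were compared with Th0 cells, which had been stimulated for 3 days through CD3 and CD28. The comparison took the 2 Treg libraries (replicates 2 and 3) and the 2 Th0 libraries (replicates 1 and 3), 4 of the 8 RNA-seq libraries of the study, across every gene of the deposited count table. All cells were wild type on the C57BL/6 background. The other 4 libraries were 2 labelled as naive CD4+ T cells sequenced straight from the spleen, without culture, and 2 of cells held for 3 days under Th17 differentiation conditions. They entered the same statistical fit and serve as reference levels. For the Treg and Th17 conditions, the labels give no cytokines or antibodies. Whether the 2 libraries of 1 group stem from different mice or cultures is not stated by the labels, and p-values therefore reflect library-to-library spread alone, possibly technical. In libraries of bulk RNA, fewer cells of a type and less RNA per cell cannot be told apart.

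Regulatory T cells (Treg) are CD4+ T cells that restrain other immune cells, and the transcription factor Foxp3 defines them. In culture, Foxp3 is induced when a T cell receives its receptor signal together with TGF-beta and IL-2. TGF-beta acts through Smad proteins, and IL-2 acts through a receptor of up to 3 chains and STAT5. Th0 cells are activated without cytokines that direct them to a helper fate, and the comparison sets the Treg conditions against such activation. The labels do not say whether the Treg cultures received the same stimulation as Th0. A difference in stimulation therefore cannot be told apart from the other Treg conditions.

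Total counts ran from 12504463 to 16332971 in the 4 libraries compared, and where a gene had no count, its level could be as high as 0.197 to 0.231 CPM by counting error alone, with 3 counts as the limit (CPM is the count scaled to a common library size, with TMM factors). The 2 Treg libraries correlated at 0.9818 and the 2 Th0 libraries at 0.983 (Pearson r over genes, on log2 CPM, with genes not independent of each other). Treg and Th0 lay at opposite ends of the second principal component, which held 14.5% of the variance. The labelled identity was met by T cell genes in both groups: Cd4 measured 866 and 885 CPM in Th0 and 713 and 821 CPM in Treg. Summed over 18 T cell markers, the level was 7044 and 6687 CPM in Th0 and 6712 and 6874 CPM in Treg.

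The Treg conditions went with changes in a large share of the genes tested. Of 14690 genes tested, 6790 (46.2%) were called at an edgeR adjusted p under 0.05, of which 3771 (25.7% of those tested) were higher and 3019 (20.6%) lower in Treg. Counts of list members given below are to be read beside these shares. The median log2 fold change over all tested genes was 0.09. That balance depended on the scaling: with library totals alone, 4873 genes were higher and 2201 lower, and the median moved to 0.25, so small folds should be read relative to it. At least 2-fold higher were 1813 genes (12.3%), and at least 2-fold lower were 883 (6.01%). The genes that rose at least 2-fold were often scarce, since 754 of them had a Treg mean of at least 10 CPM and 108 of at least 100 CPM. Among those that fell at least 2-fold, 526 reached 10 CPM and 210 reached 100 CPM. The Treg and Th0 libraries did not overlap at 73.9% of the genes tested. With 2 libraries a group, a lack of overlap between them at a single gene therefore says little by itself.

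**Figure D1:**
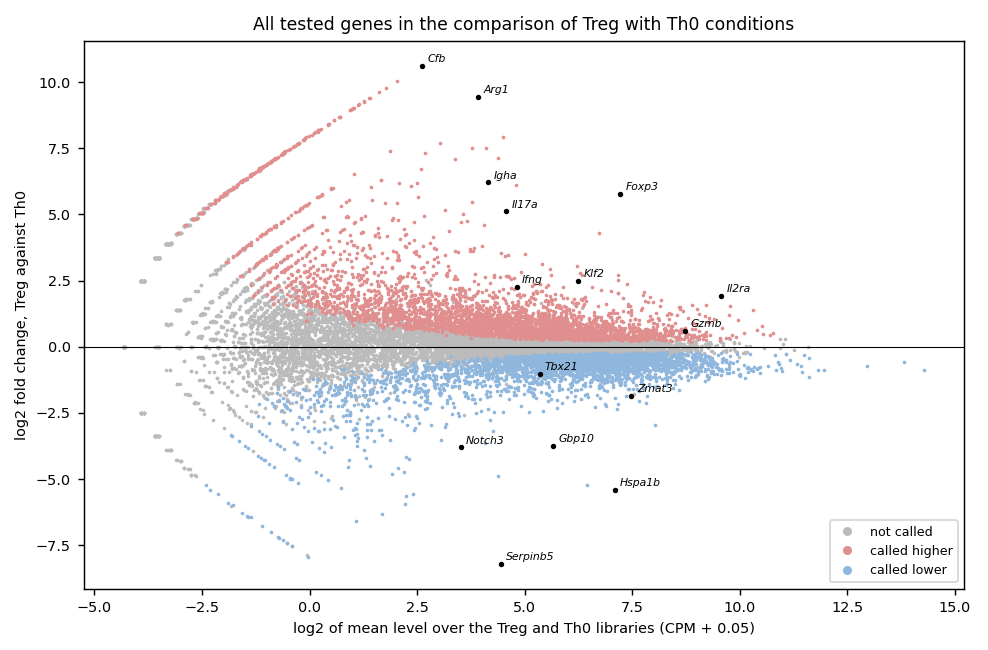
Each point is 1 of the 14690 tested genes, with the log2 of its mean level over the 4 libraries (CPM + 0.05) on the x axis and its log2 fold change of Treg against Th0 on the y axis. Labelled genes are some of those named in the text, and the straight streaks of points at the left are genes with 0 or a few counts in 1 group, whose fitted folds depend on the prior count.

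With receptor gene segments, pseudogenes and predicted genes set aside, the 10 called genes with the highest fold change that reached 10 CPM in Treg were Cfb, Arg1, Slc7a2, Ccl9, Cd5l, Sema6d, Ccl6, Ptrf, Tnfaip2 and Igha. Arg1, which encodes the arginine-degrading enzyme arginase 1, measured 28 and 31.8 CPM in Treg, 0.066 and 0 CPM in Th0, 2.64 and 4.85 CPM in Th17 and 0.385 and 0.477 CPM in naive cells. Both Treg libraries thus lay above every other library. Its Th0 level rests on 1 read, which puts the ratio at 837 with a 95% counting interval (exact Clopper-Pearson) of 150 to 3.31e+04. Slc7a2, which encodes a transporter of arginine and other basic amino acids, measured 15.1 and 17.3 CPM in Treg against 0 and 0.154 CPM in Th0, a ratio of 227 (62.5 to 1.88e+03). The chemokine genes Ccl9 (log2 change 7.51, SE 0.37, edgeR adjusted p = 5.4e-06) and Ccl6 (7.14, SE 0.3, edgeR adjusted p = 2.7e-06) rose as well. Ptrf, which encodes the caveola protein cavin-1, measured 23.8 and 17.1 CPM in Treg and at most 1.11 CPM in any other library. Cfb, which encodes complement factor B, had no count in Th0 and 13.2 and 10.9 CPM in Treg, at least 56.2-fold higher against a limit of 3 counts per library.

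Several of these genes are known from macrophages or antibody-secreting cells. Cd5l and Igha were higher in the naive libraries than in Treg, whereas Arg1 and Ccl9 were lower there, Ccl9 at 8.72 and 14 CPM in naive cells and 34.2 and 33.4 CPM in Treg. Cd5l, a secreted protein of macrophages, measured 27 and 27 CPM in Treg, 0.264 and 0 CPM in Th0, and 220 and 222 CPM in naive cells. Igha, the constant region of IgA, measured 38.2 and 32 CPM in Treg, 0.33 and 0.616 CPM in Th0, and 160 and 314 CPM in naive cells. Many markers of myeloid cells moved with them. Of 23 tested myeloid and dendritic cell markers, 17 were higher and 1 lower in Treg (median log2 fold change 3.68), with 78.3% called beside 46.2% of all tested genes. Their summed level was 66.2 and 62.1 CPM in Th0, 180 and 150 CPM in Treg, 152 and 169 CPM in Th17, and 4825 and 4609 CPM in naive cells. The naive libraries also held 4271 and 3532 CPM over 13 B cell markers, beside 5321 and 5856 CPM over 18 T cell markers. The part of T cells in the levels given for naive cells was not tested. Lyz2, the lysozyme of macrophages and granulocytes, measured 2.05 and 1.77 CPM in Th0 and 27.6 and 21.5 CPM in Treg. C1qb, Mertk, S100a8 and S100a9 had no count in Th0 and between 1.44 and 5.57 CPM in Treg. Not all followed: Cd68 measured 19.4 and 16 CPM in Th0 and 21.5 and 19 CPM in Treg and did not pass. Itgam went the other way, at 2.51 and 1.97 FPKM in Th0 and 0.846 and 1.12 FPKM in Treg (fragments scaled by gene length and library size). The part that such cells had in the rises was not tested.

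**Figure D2:**
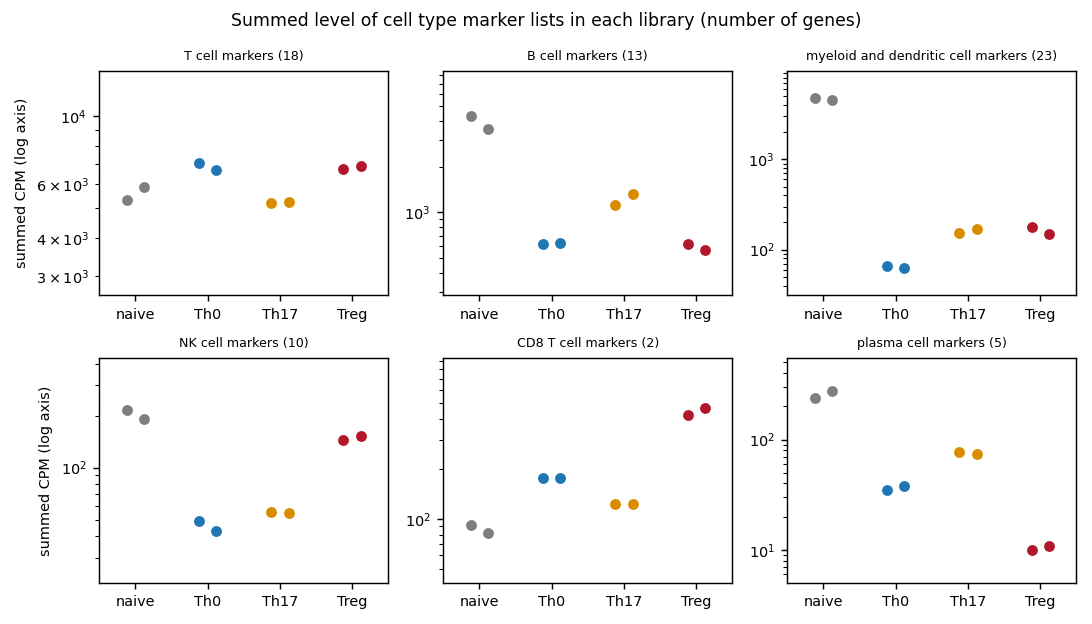
Each dot is 1 library, with the summed level of a list of cell type markers in CPM on a log axis and the number of genes of the list in parentheses. The summed myeloid, NK and CD8 markers were higher in both Treg libraries than in both Th0 libraries. The plasma cell sum, mostly Mzb1, was lower, and the summed T and B cell markers of the groups overlapped.

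By the same rule, the 10 called genes with the lowest fold change that reached 10 CPM in Th0 were Serpinb5, Hspa1b, Hspa1a, Hspa1l, Notch3, Gbp10, Ptpn14, Rasgef1a, Hmcn2 and Map3k9. Serpinb5, a member of the serpin family also called maspin, measured 42.6 and 43.9 CPM in Th0, 16.7 and 21 CPM in Th17, 0.262 and 0 CPM in Treg, and 0 CPM in both naive libraries. It was thus present after activation and near the detection limit in Treg (log2 fold change -8.19, SE 0.44, edgeR adjusted p = 1.57e-05). Notch3, a Notch receptor, measured 19.5 and 22.9 CPM in Th0 and 1.31 and 1.76 CPM in Treg (-3.79, SE 0.27, edgeR adjusted p = 2.75e-05). The tyrosine phosphatase gene Ptpn14 measured 26.5 and 35.6 CPM in Th0 and 2.16 and 2.84 CPM in Treg (-3.64, SE 0.22, edgeR adjusted p = 1.48e-05). In Th17, Notch3 stood at 24 and 31.5 CPM and Ptpn14 at 25 and 22.6 CPM, far above both Treg libraries. Rasgef1a went from 33.8 and 34.9 CPM in Th0 to 3.54 and 4.14 CPM in Treg, and lay at 3.76 and 5.68 CPM in Th17.

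Genes of Treg identity rose on the whole. Of 31 tested members, 17 were higher and 5 lower, with a median log2 fold change of 0.92 beside 0.09 over all genes. Foxp3 measured 317 and 270 CPM in Treg, 5.94 and 4.7 CPM in Th0, and 9.93 and 5.91 CPM in Th17 (log2 fold change 5.78, SE 0.23, edgeR adjusted p = 2.7e-06). Both Treg libraries lay far above the other cultured libraries. The Foxp3 gene lies on chromosome X at chrX:7579676-7595243 of GRCm38. Of the Ikaros family, Ikzf4 (Eos), a partner of Foxp3 in repression, measured 137 and 127 CPM in Treg against 17.7 and 14.2 CPM in Th0 (3.04, SE 0.16, edgeR adjusted p = 7.02e-06), while Ikzf3 (Aiolos) fell by 0.66 on the log2 scale (SE 0.12). Ikzf1 (Ikaros) did not pass (-0.16, SE 0.1). Per length, Ikzf2 (Helios) stood at 21.4 and 20.6 FPKM in Treg and 4.65 and 4.37 FPKM in Th0, which brought it level with Ikzf1 at 25.2 and 22.3 FPKM in Treg.

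Surface and effector genes of the list also rose. Gpr83, a receptor typical of Treg, measured 34 and 33.6 CPM in Treg and 5.94 and 4.77 CPM in Th0 (log2 fold change 2.65, SE 0.17). The groups lay far apart, and both naive libraries stood between them at 25.2 and 25.1 CPM. Gpr15, a gut homing receptor, rose by 3.38 (SE 0.26) from 1.25 and 1.46 CPM to 12.1 and 16.2 CPM. The ectoenzyme genes Entpd1 (CD39) and Nt5e (CD73), whose products turn extracellular ATP into adenosine, rose by 1.33 (SE 0.13) and 1.32 (SE 0.13). Tgfb1 measured 259 and 258 CPM in Treg and 89.1 and 88.9 CPM in Th0 (1.54, SE 0.1). The inhibitory receptor gene Ctla4 rose by 0.92 (SE 0.1), from 426 and 421 CPM to 783 and 820 CPM.

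Some genes that mark Treg in tissues did not follow. Tnfrsf18 (GITR) measured 305 and 265 CPM in Treg and 279 and 299 CPM in Th0, which overlapped. Tigit, an inhibitory receptor, measured 44.8 and 41.5 CPM in Treg and 61.5 and 59.6 CPM in Th0. Its fall (-0.49, SE 0.13, edgeR adjusted p = 0.012) was not called without Treg replicate 3 (-0.42, edgeR adjusted p = 0.085). Il10 measured 6.94 and 7.28 CPM in Treg and 4.49 and 3.85 CPM in Th0 (0.77, SE 0.24, edgeR adjusted p = 0.0291), and leaving out any 1 of these 4 libraries ended the call. Areg had no count in Treg and at most 0.385 CPM in Th0. Members that passed as lower were Ikzf3, Satb1, Tigit, Cd83 and Areg. Areg was not called with the replicate block or on leaving out any 1 of the 4 libraries (edgeR adjusted p = 0.0659 to 0.114), and Tigit was not called with library totals alone. Without Treg replicate 3, 3 members passed as lower.

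**Figure D3:**
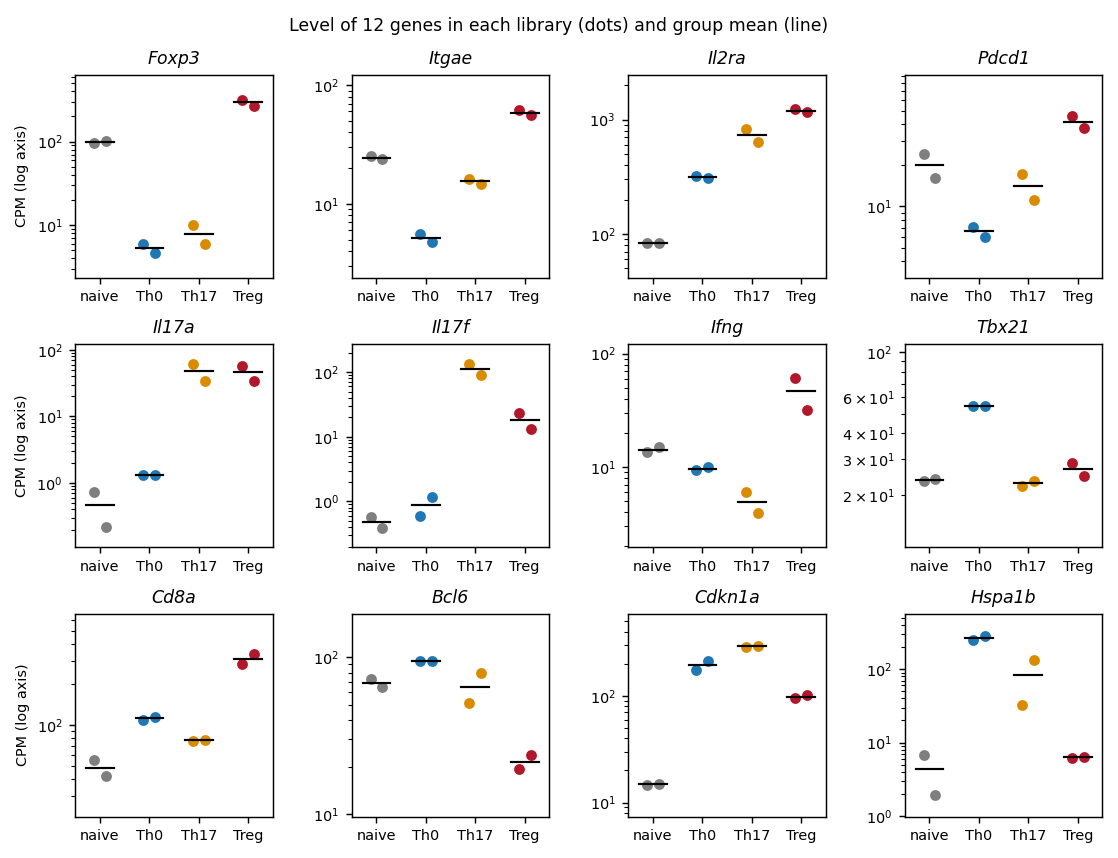
Each panel shows the level of 1 gene in CPM on a log axis, with a dot for each library and a line at the group mean. Foxp3, Itgae and Pdcd1 were highest in Treg, Il17a overlapped between Treg and Th17 while Il17f did not, and Bcl6, Cdkn1a and Hspa1b were lower in Treg than in Th0.

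The IL-2 receptor chains rose while transcripts of several signalling proteins behind them fell. Il2ra, the high-affinity chain, measured 1236 and 1157 CPM in Treg and 324 and 307 CPM in Th0. Il2rb, the chain shared with the IL-15 receptor, measured 670 and 540 CPM in Treg and 289 and 280 CPM in Th0 (log2 fold change 1.09, SE 0.11, edgeR adjusted p = 0.000119). Il2rg, the common gamma chain, rose by 0.38 (SE 0.08). Per length the order of the 3 chains changed: Il2ra was the lowest in Th0 at 50.6 and 48.1 FPKM, below Il2rb at 73.5 and 71.3 FPKM and Il2rg at 85 and 82.5 FPKM. In Treg it was the highest at 216 and 204 FPKM, above Il2rb at 190 and 155 FPKM and Il2rg at 127 and 117 FPKM. The kinase gene Jak1 fell by 0.46 (SE 0.09), Stat5a by 0.91 (SE 0.08) and Stat5b by 0.62 (SE 0.09). Jak3, the kinase of the common gamma chain, measured 674 and 848 CPM in Treg and 963 and 988 CPM in Th0 (-0.36, SE 0.11, edgeR adjusted p = 0.0272), and it was not called without Treg replicate 2 (-0.19, edgeR adjusted p = 0.21), without Th0 replicate 3 (-0.37, edgeR adjusted p = 0.0737), with library totals alone or with the replicate block.

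Of the 20 tested genes of the IL-2 receptor and STAT5 list, 8 were higher and 9 lower, and the median was 0.17. STAT5 feedback genes split. Socs2 rose from 10.4 and 7.08 CPM to 73.2 and 78.8 CPM (log2 change 3.12, SE 0.33, edgeR adjusted p = 0.000131), and the groups were far apart. Cish measured 243 and 122 CPM in Treg and 173 and 138 CPM in Th0, so its Treg libraries lay on both sides of Th0, and it passed as higher without Treg replicate 3 (0.66, edgeR adjusted p = 0.011). Pim1, a survival kinase, fell by 0.39 (SE 0.08). Lta, which encodes lymphotoxin alpha, rose from 6.93 and 5.77 CPM to 45.5 and 35.6 CPM (2.67, SE 0.19, edgeR adjusted p = 2.58e-05). Il2 itself was scarce everywhere, at 0.131 and 0.767 CPM in Treg and 3.04 and 3.08 CPM in Th0 (-2.8, SE 0.75, edgeR adjusted p = 0.0132), and it was not called without Treg replicate 2 (-1.98, edgeR adjusted p = 0.0894).

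Of 31 tested genes of TGF-beta signalling, 14 were higher and 4 lower, with a median of 0.54. Genes that damp the TGF-beta signal, several of them induced by it, were among those that rose: Skil (1.83, SE 0.23), Pmepa1 (1.73, SE 0.13), Ldlrad4 (2.03, SE 0.17), Ski (0.86, SE 0.09) and Smad7 (0.65, SE 0.11). Ldlrad4 measured 66.3 and 51.7 CPM in Treg, 14.7 and 14.2 CPM in Th0, and 27.1 and 31.6 CPM in Th17. It was higher in Treg than in Th17 too (log2 fold change 1.01, edgeR adjusted p = 0.00199), while Skil did not pass there (0.24, edgeR adjusted p = 0.44). The signal carrier Smad3 fell, from 113 and 110 CPM to 56.5 and 61.9 CPM (-0.91, SE 0.1), and the repressor Tgif1 fell by 1.21 (SE 0.1). Of the receptors, Tgfbr1 rose by 0.54 (SE 0.09), and Tgfbr2 measured 217 and 190 CPM against 176 and 172 CPM in Th0 without passing (0.22, SE 0.09, edgeR adjusted p = 0.0649), though it did without Treg replicate 3 (0.33, edgeR adjusted p = 0.0359). With library totals alone or without Treg replicate 2, 2 members of the list passed as lower.

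Receptors for migration rose in 17 of 30 tested members and fell in 2 (median 0.53), with 63.3% called beside 46.2% of all tested genes. Ccr8, a receptor of Treg in inflamed tissue, measured 133 and 118 CPM in Treg, 45.6 and 36.9 CPM in Th0, and 23.7 and 17.8 CPM in Th17 (log2 fold change 1.61, SE 0.16 against Th0, and 2.59 against Th17, edgeR adjusted p = 2.43e-05). Ccr6, the receptor for the chemokine CCL20, measured 18.6 and 19.9 CPM in Treg and 1.58 and 1.54 CPM in Th0 (3.61, SE 0.21). Both Treg libraries were below Th17, at 55.5 and 41.4 CPM. Itgae, the integrin chain that binds E-cadherin, measured 61.4 and 55.9 CPM in Treg and 5.61 and 4.77 CPM in Th0, and its partner Itgb7 rose by 0.7 (SE 0.08). Cxcr6 rose by 1.89 (SE 0.25) and Gpr183, which guides cells by oxysterols, by 1.27 (SE 0.14). Ccr7, a lymph node homing receptor, measured 433 and 398 CPM against 328 and 363 CPM and did not pass (0.27, SE 0.1, edgeR adjusted p = 0.052). It passed as higher with upper-quartile scaling, with library totals alone (0.43, edgeR adjusted p = 0.00434), with limma-voom, with the filter at 5 CPM and without either Th17 library. Of the list, 1 member passed as lower without Th0 replicate 1 or Th0 replicate 3, and none with library totals alone or without Treg replicate 3.

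Genes of the Th17 programme were partly switched on in Treg. Of 22 tested members, 14 were higher and 4 lower than in Th0 (median 0.92). Il17a, the signature cytokine, measured 57.4 and 34.3 CPM in Treg, 1.32 and 1.31 CPM in Th0, and 60.9 and 33.7 CPM in Th17. It rose by 5.12 against Th0 (SE 0.45, edgeR adjusted p = 6.25e-05), and the Treg and Th17 libraries overlapped (-0.05, edgeR adjusted p = 0.94). Il17f, its relative, measured 23 and 13 CPM in Treg, 0.594 and 1.15 CPM in Th0, and 136 and 89.5 CPM in Th17, so that Treg lay between both groups without overlap. Against Th17, where 29.2% of all genes were called, 17 of the 22 members were lower, beside 14.8% of all genes, and 1 was higher, beside 14.5% (median -1.38).

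Il1r1, the IL-1 receptor, followed the same order, with 5.5 and 6.36 CPM in Treg, 1.45 and 1.69 CPM in Th0 and 36.2 and 29.2 CPM in Th17. Ahr, the aryl hydrocarbon receptor, measured 53.5 and 58.3 CPM in Treg, 37 and 37.4 CPM in Th0 and 143 and 160 CPM in Th17. Il21 went the other way against Th0, at 4.85 and 5.06 CPM in Treg, 12.2 and 13.9 CPM in Th0 and 73.1 and 52.6 CPM in Th17 (log2 fold change -1.39, SE 0.27). Hif1a, which helps Th17 cells to use glucose, fell from 1511 and 1548 CPM in Th0 to 648 and 719 CPM in Treg (-1.16, SE 0.09, edgeR adjusted p = 3e-05).

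Th1 and cytotoxic genes diverged from their transcription factor. Tbx21 (T-bet), the master factor of Th1 cells, measured 28.6 and 24.7 CPM in Treg and 54.7 and 54.3 CPM in Th0 (log2 fold change -1.03, SE 0.12, edgeR adjusted p = 0.0002). Ifng, the cytokine it drives, measured 60.7 and 32.1 CPM in Treg, 9.51 and 9.93 CPM in Th0, and 5.99 and 3.94 CPM in Th17 (2.26, SE 0.29, edgeR adjusted p = 0.000366). Both Treg libraries lay above all others, although they differed by almost 2-fold between themselves. Eomes, the related factor of cytotoxic cells, rose from 4.03 and 5.08 CPM to 16.9 and 15.1 CPM (1.82, SE 0.2). Gzmb, a cytotoxic protease, measured 560 and 461 CPM in Treg, 345 and 326 CPM in Th0 and 48.5 and 42.6 CPM in Th17. Its rise against Th0 was modest (0.61, SE 0.12), and its excess over Th17 was large (3.48, edgeR adjusted p = 3.13e-06). Nkg7, a protein of cytotoxic granules, rose by 1.08 (SE 0.12), while Prf1 (perforin) fell by 1.41 (SE 0.28) to 6.35 and 7.89 CPM. In the whole list, 15 of 28 tested members were higher and 4 lower (median 0.56), with 67.9% called beside 46.2% of all tested genes.

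Both CD8 T cell markers and some of the NK cell markers were higher in the same libraries. Cd8a measured 282 and 334 CPM in Treg, 109 and 115 CPM in Th0, 76.4 and 77.3 CPM in Th17, and 54.9 and 41.8 CPM in naive cells (log2 fold change 1.46, SE 0.13). Cd8b1, the other chain, measured 144 and 136 CPM in Treg and 66.9 and 60.7 CPM in Th0 (1.13, SE 0.1). Of 10 tested NK markers, 4 were higher and 1 lower, so 50% were called, beside 46.2% of all tested genes. Their summed level went from 49.2 and 43 CPM in Th0 to 145 and 152 CPM in Treg. Klrk1 (NKG2D) rose by 2.82 (SE 0.2), Klrd1 (CD94) by 2.55 (SE 0.21) and Klrc1 (NKG2A) by 1.58 (SE 0.18). These 3 receptors also occur on CD8 T cells. Tyrobp went the other way, at 17.3 and 17.4 FPKM in Th0 and 6.36 and 8.79 FPKM in Treg. By FPKM, Klra1 and Klra7 were lower in both Treg libraries than in both Th0 libraries, while Klra4 and Klra8 overlapped. Of markers closer to NK cells, Klrb1c measured 0.852 and 1.76 CPM in Treg and 1.06 and 0.462 CPM in Th0 and did not pass. Ncr1 had no count in Th0 and 0.131 and 0.153 CPM in Treg, under the limit that 3 counts set, and its call as higher (edgeR adjusted p = 0.0424) was lost on leaving out any 1 of the 4 libraries (0.0851 to 0.163). The part of CD8 T cells in the levels of Ifng, Gzmb, Eomes and Nkg7 was not tested.

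Th2 genes gave 10 higher and 4 lower of 16 tested (median 0.44), with 6 higher without Th0 replicate 3. Of the list, 87.5% were called, beside 46.2% of all tested genes. Gata3, the master factor of Th2 cells and also active in Treg, measured 154 and 147 CPM in Treg, 114 and 103 CPM in Th0, and 48.8 and 46.2 CPM in Th17. It rose by 0.47 against Th0 (SE 0.09, edgeR adjusted p = 0.00278). Il24, a cytokine of the IL-10 family, measured 15.7 and 18.7 CPM in Treg, 4.36 and 4.31 CPM in Th0 and 82.2 and 75.9 CPM in Th17. Il4 stayed under 1 CPM in both Treg libraries.

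Follicular helper genes fell more often than they rose, with 7 lower and 3 higher of 15 tested (median -0.2). Of the list, 66.7% were called, beside 46.2% of all tested genes. Bcl6, the repressor that defines these cells, measured 19.3 and 23.8 CPM in Treg, 94.9 and 94.2 CPM in Th0 and 50.9 and 79.4 CPM in Th17 (log2 fold change -2.14, SE 0.2, edgeR adjusted p = 7.57e-05). Pou2af1, a coactivator, fell from 76.3 and 72.1 CPM to 20.6 and 21.2 CPM (-1.83, SE 0.12). Tcf7 (TCF-1), a factor of naive and follicular cells, fell from 1313 and 1409 CPM to 658 and 646 CPM (-1.06, SE 0.12). The inhibitory receptor Pdcd1 (PD-1), which marks these cells as well as Treg, went the other way, from 7.13 and 6.01 CPM to 46.4 and 37.5 CPM (2.67, SE 0.27, edgeR adjusted p = 0.000109). B cells express Bcl6 and Pou2af1 too. Of 13 tested B cell markers, 1 was higher and 5 were lower in Treg, the same called share as over all tested genes (46.2%). Their summed level was 617 and 631 CPM in Th0 and 625 and 570 CPM in Treg. Of 4 tested plasma cell markers, 1 was lower and 1 higher (median -0.28). Their sum, 34.9 and 38.2 CPM in Th0 and 10.1 and 10.8 CPM in Treg, was mostly Mzb1, which fell by 2.77 (SE 0.18). Jchain, the joining chain of secreted antibodies, went the other way, with 36 counts in Treg against 3 in Th0, a ratio of 11.9 (3.77 to 60.5, counting error only). The part of such cells was not tested.

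Costimulatory and inhibitory receptors moved in both directions, with 12 higher and 11 lower of 36 tested (median 0.06). Of the list, 63.9% were called, beside 46.2% of all tested genes. Tnfsf11 (RANKL) rose from 1.45 and 1.46 CPM to 14.6 and 17.7 CPM (log2 change 3.46, SE 0.38), and Cd96 from 23.7 and 18.3 CPM to 154 and 125 CPM (2.73, SE 0.17). Havcr2 (TIM-3) rose by 2.26 (SE 0.2) and Tnfrsf9 (4-1BB) by 1.51 (SE 0.14). Cd28, the costimulatory receptor that the Th0 culture engages, fell from 655 and 705 CPM to 356 and 368 CPM (-0.91, SE 0.08). Lag3, an inhibitory receptor, measured 180 and 205 CPM in Treg and 342 and 308 CPM in Th0 (-0.76, SE 0.1). Tnfsf8 (CD30 ligand) fell by 1.45 (SE 0.12) and Slamf1 by 1.29 (SE 0.12). The inhibitory receptors thus did not move as a block, since Pdcd1, Havcr2, Cd96 and Ctla4 rose while Lag3 and Btla (-0.79, SE 0.1) fell.

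T cell receptor signalling genes fell in 17 of 35 tested members and rose in 6 (median -0.27), and without Treg replicate 3, 11 passed as lower. Of the list, 65.7% were called, beside 46.2% of all tested genes. Zap70, the kinase next to the receptor, measured 233 and 237 CPM in Treg and 488 and 434 CPM in Th0 (log2 fold change -0.97, SE 0.09, edgeR adjusted p = 6.25e-05). The phosphatase gene Ptpn22 fell by 1.11 (SE 0.1), the ubiquitin ligase gene Cblb by 0.9 (SE 0.09), Malt1 by 0.89 (SE 0.08) and Prkcq by 0.76 (SE 0.09). Ubash3a and Sla2, which dampen the signal, rose by 1.07 (SE 0.1) and 0.89 (SE 0.13). The receptor chains themselves did not move together: Cd3g rose by 0.59 (SE 0.1), Cd3e fell by 0.46 (SE 0.09) and Trac measured 477 and 448 CPM against 456 and 464 CPM in Th0. Among 32 transcription factors of activation, 13 were lower and 10 higher, and 8 were lower without Treg replicate 2. Of the AP-1 family, Fosl2 fell by 1.35 (SE 0.13), Batf by 0.72 (SE 0.1) and Fos by 1.41 (SE 0.23), while Jund rose by 1.56 (SE 0.16) and Irf4 by 1.06 (SE 0.16). Klf2, a factor of resting T cells, rose from 24.9 and 20.9 CPM to 140 and 117 CPM (2.49, SE 0.15, edgeR adjusted p = 1.33e-05), below the naive 477 and 472 CPM. Klf2 belongs to a list of 27 genes of naive and quiescent cells, of which 8 were higher and 8 lower (median 0.11), with 4 higher without Th0 replicate 3 and 5 without Treg replicate 2. Of that list, 59.3% were called, beside 46.2% of all tested genes.

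**Figure D4:**
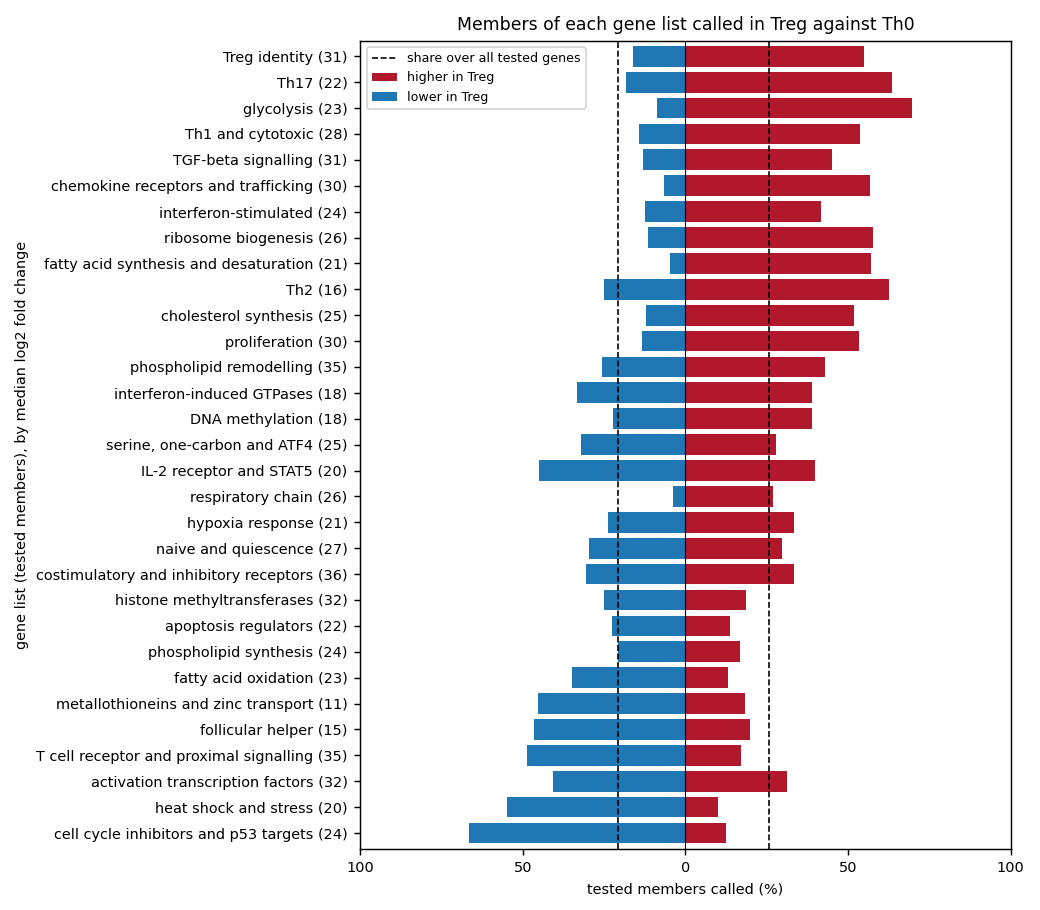
For each list, bars give the percentage of tested members called higher (red, to the right) or lower (blue, to the left) in Treg than in Th0, ordered by the median log2 fold change of the list. Dashed lines mark the same percentages over all 14690 tested genes, 25.7% higher and 20.6% lower.

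Cell cycle genes of entry into replication rose. Mki67, the general marker of cycling cells, measured 1959 and 1871 CPM in Treg and 1844 and 2104 CPM in Th0, which overlapped (log2 fold change -0.04, SE 0.1). Genes of the step into DNA replication were higher: Ccne2 (cyclin E2) went from 14.5 and 17.7 CPM to 50.4 and 40.6 CPM (1.5, SE 0.23), and Ccne1 from 36.5 and 33.6 CPM to 82.1 and 72.7 CPM (1.14, SE 0.13). Rrm2, the regulated subunit of ribonucleotide reductase, rose by 1.29 (SE 0.13), the replication origin factor Cdc6 by 1.14 (SE 0.17), the DNA clamp Pcna by 1 (SE 0.13), and the transcription factor E2f1 by 0.97 (SE 0.16). Genes of mitosis were mixed. Ccnb2, Aurkb and Bub1b did not pass, with Ccnb2 at 177 and 186 CPM in Treg against 187 and 222 CPM in Th0. Birc5 (survivin), which acts in cell division and is kept in the apoptosis list, rose from 108 and 125 CPM to 185 and 185 CPM (0.67, SE 0.11). The mitotic kinase gene Plk1 passed as higher (0.39, SE 0.12), but not without Th0 replicate 1 (0.16, edgeR adjusted p = 0.288), Treg replicate 2, Treg replicate 3, with RLE scaling or with the replicate block. Of 30 tested proliferation genes, 16 were higher and 4 lower (median 0.34). Without Th0 replicate 1 or Treg replicate 2, 10 were higher. The 4 called lower were Top2a, Mcm4, Bub1 and Cdc20, and none of the list passed as lower with library totals alone or without Th0 replicate 3, and 1 did without Treg replicate 2 or without Treg replicate 3.

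Inhibitors of the cycle and targets of the tumour suppressor p53 fell, in 16 of 24 tested members against 3 that rose, with a median of -0.77. Cdkn1a (p21), which blocks cyclin-dependent kinases and is the best known p53 target, measured 95 and 102 CPM in Treg, 174 and 214 CPM in Th0 and 288 and 296 CPM in Th17 (log2 fold change -0.98, SE 0.11, edgeR adjusted p = 0.000153). Both Treg libraries lay below every other cultured library. The p53 target Zmat3 fell from 264 and 294 CPM to 72.2 and 82.6 CPM (-1.85, SE 0.11, edgeR adjusted p = 1.36e-05), and the death gene Bbc3 (PUMA) from 94.9 and 104 CPM to 25.7 and 27.7 CPM (-1.9, SE 0.16, edgeR adjusted p = 5.21e-05). Mdm2, the p53 target that degrades p53, fell by 1.21 (SE 0.12), Ccng1 by 0.87 (SE 0.09) and Phlda3 by 1.17 (SE 0.22). The gene of p53 itself, Trp53, rose by 0.43 (SE 0.09), from 82.1 and 80.8 CPM to 117 and 103 CPM. The kinase inhibitor genes split: Cdkn1b (p27) fell by 0.8 (SE 0.13) while Cdkn2c (p18) rose from 29 and 36.4 CPM to 91.2 and 93 CPM (1.5, SE 0.13). Of another list, that of apoptosis regulators, the pro-death genes Bcl2l11 (BIM), Fas and Pmaip1 (NOXA) fell by 1.88 (SE 0.14), 1.43 (SE 0.13) and 1.32 (SE 0.14). Of its 22 tested members 5 were lower and 3 higher, and its called share of 36.4% was below the 46.2% of all tested genes.

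**Figure D5:**
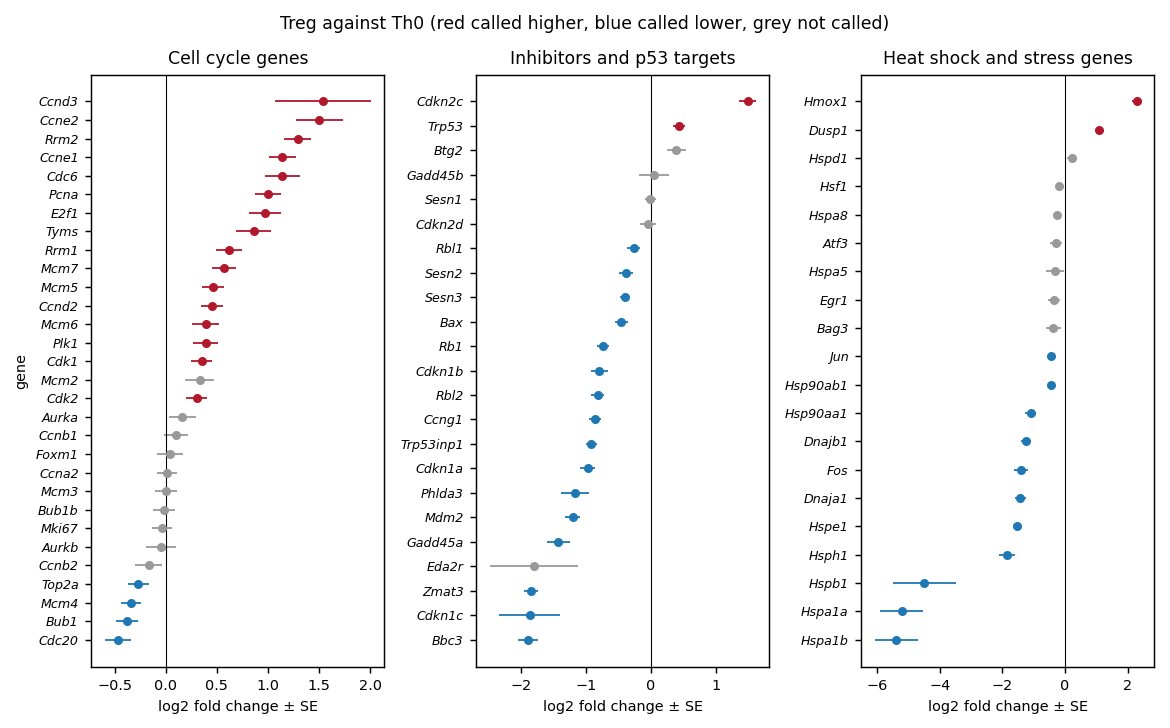
Each point is the log2 fold change of 1 gene in Treg against Th0 with its SE from the edgeR fit, for the lists of cell cycle genes, of cycle inhibitors and p53 targets, and of heat shock and stress genes. Red points passed as higher, blue points as lower and grey points did not pass, and Cdkn2b, which had no count in Th0, is left out.

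Glycolysis genes rose in 16 of 23 tested members (median 0.65) and 2 fell. Hk2, the inducible hexokinase, measured 90.7 and 79.5 CPM in Treg, 13.6 and 12.3 CPM in Th0, and 148 and 98.7 CPM in Th17 (log2 fold change 2.71, SE 0.19, edgeR adjusted p = 2.51e-05). The lactate exporter Slc16a3 rose by 1.88 (SE 0.17), phosphofructokinase Pfkl by 1.85 (SE 0.21), enolase Eno1 by 1.54 (SE 0.14) and lactate dehydrogenase Ldha by 1.02 (SE 0.13). Slc2a1 (GLUT1), the main glucose transporter of activated T cells, rose from 28.8 and 26 CPM to 61.3 and 57.4 CPM. Gpi1 went the other way (-0.63, SE 0.08), as did Pfkm, which was not called without Treg replicate 2 (-0.35, edgeR adjusted p = 0.101), so that 1 member passed as lower there, and likewise with library totals alone, with the replicate block or without Th0 replicate 1. Of 21 tested genes of the hypoxia response, 7 were higher and 5 lower, and 4 were higher without Th0 replicate 3, Treg replicate 2 or Treg replicate 3. That list had 57.1% called, beside 46.2% of all tested genes. The hypoxia targets Bnip3 (1.65, SE 0.17) and Egln3 (1.63, SE 0.2) rose while Hif1a and the target Ndrg1 (-0.79, SE 0.12) fell.

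Myc rose from 44.4 and 37.6 CPM to 80.4 and 76.1 CPM (log2 change 0.93, SE 0.18, edgeR adjusted p = 0.00238). Genes of ribosome assembly, many of them known Myc targets, were higher in 15 of 26 tested members and lower in 3 (median 0.48), with 9 higher without Treg replicate 2 and 1 lower without Treg replicate 3 or with library totals alone. Bop1 rose by 1.79 (SE 0.25), Nolc1 by 1.69 (SE 0.21) and Nop56 by 1.17 (SE 0.14). The abundant nucleolar protein gene Npm1 fell, from 1497 and 1463 CPM to 918 and 825 CPM (-0.76, SE 0.12). The E-box was searched as CACGTG in the bases directly upstream of the genes of ribosome assembly. Of 22 members with a promoter sequence, 0 held a match, beside 6.86% of all 27025 genes with a promoter sequence. Sites outside these bases were not searched, and the part of Myc in the rises of this list was not tested. Respiratory chain genes were closer to the background, with 7 of 26 higher and 1 lower (median 0.16), and between 1 and 4 higher when 1 of the 4 libraries was left out. With library totals alone 13 of them were higher.

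Lipid synthesis genes rose. Of 21 tested genes of fatty acid synthesis and desaturation, 12 were higher and 1 lower (median 0.46), with 7 higher without Treg replicate 2. Scd1, the desaturase that makes oleic acid, measured 366 and 398 CPM in Treg, 89.9 and 115 CPM in Th0 and 232 and 238 CPM in Th17 (log2 fold change 1.9, SE 0.14, edgeR adjusted p = 3.09e-05). Fabp5, a fatty acid carrier, rose by 2.2 (SE 0.2), Fads2, a desaturase of polyunsaturated fatty acids, by 1.35 (SE 0.16) and Acly, which supplies acetyl-CoA, by 1.06 (SE 0.12). The 1 member called lower, Acsl3, did not pass without Th0 replicate 3 (-0.38, edgeR adjusted p = 0.179), Treg replicate 2 or Treg replicate 3, nor with library totals alone, and 2 members were lower without Th0 replicate 1. Of 25 tested cholesterol synthesis genes, 13 were higher and 3 lower (median 0.43), among them Hsd17b7 (1.7, SE 0.2). The 3 called lower, Msmo1, Insig1 and Srebf2, did not pass without Treg replicate 2 or with library totals alone, and the list had 1 lower without Th0 replicate 3 and 5 without Th0 replicate 1. In the fatty acid oxidation list, 8 of 23 tested members were lower and 3 higher (median -0.16). Its called share was 47.8%, near the 46.2% over all tested genes, and 5 were lower without Treg replicate 2 or with library totals alone. Its member Hadhb fell from 44.5 and 52.7 CPM to 13.1 and 15.4 CPM (-1.77, SE 0.18), while Cpt2 rose by 1.67 (SE 0.22).

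The series title names phospholipid remodelling, in which acyl chains of membrane lipids are removed and replaced. Of 35 tested remodelling genes, 15 were higher and 9 lower (median 0.29), and 5 were lower without Treg replicate 2. Acyltransferases that rebuild phospholipids rose: Mboat1 (1.52, SE 0.22), Lpgat1 (0.96, SE 0.11) and Lpcat3 (0.87, SE 0.11). Lpcat3, which inserts polyunsaturated chains, measured 49.5 and 49.1 CPM in Treg, 26.9 and 27.1 CPM in Th0 and 48.7 and 44.6 CPM in Th17. Mboat7, which inserts arachidonic acid into phosphatidylinositol, measured 73.4 and 82.2 CPM in Treg against 102 and 114 CPM in Th0, and its fall (-0.47, SE 0.11) was not called without Treg replicate 2 (-0.38, edgeR adjusted p = 0.0587). Agpat4 fell by 1.91 (SE 0.36) and the phospholipase gene Pla2g6 by 0.86 (SE 0.15). Pla2g7 and Ppap2b rose by 4.33 (SE 0.33) and 2.29 (SE 0.36) to at most 4.91 CPM. Both were higher in the naive libraries, which held many B cell and myeloid transcripts, at 56 and 62.1 CPM and at 23.9 and 21.9 CPM. Of 24 tested genes of new phospholipid synthesis, 4 were higher and 5 lower, including Lpin1 (-1.2, SE 0.15) and Dgat2, an enzyme of triglyceride synthesis (2.79, SE 0.24), and 1 or 2 were higher when 1 of the 4 libraries was left out and 7 with library totals alone. That list had 37.5% called, beside 46.2% of all tested genes. Setd2, the H3K36 methyltransferase named in the series title, measured 169 and 168 CPM in Treg and 256 and 296 CPM in Th0. Of 32 tested histone methyltransferases, 6 were higher and 8 lower (median 0.01), with 3 higher and 5 lower without Treg replicate 2, 4 lower without Treg replicate 3, and 5 lower without Th0 replicate 3 or with library totals alone. Their called share of 43.8% was near the 46.2% of all tested genes. Besides Setd2, Whsc1l1 (Nsd3) fell by 1.01 (SE 0.12) and Smyd2 rose by 1.29 (SE 0.2). Tet2, which oxidises methylated DNA, fell by 1.17 (SE 0.16).

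Stress response genes of amino acid shortage split. Ddit3 (CHOP), a factor of prolonged stress, measured 28.6 and 40.3 CPM in Treg, 167 and 164 CPM in Th0 and 55.3 and 94.1 CPM in Th17 (log2 fold change -2.26, SE 0.24, edgeR adjusted p = 0.000141). Atf4, the factor that governs the response, fell from 564 and 492 CPM to 243 and 247 CPM (-1.11, SE 0.12). Enzymes of serine and one-carbon metabolism went both ways. Shmt1 rose by 1.83 (SE 0.27) and Mthfd1l by 0.65 (SE 0.11), while Aldh1l2 passed as lower (-0.96, SE 0.29), but not without Th0 replicate 1 (-0.78, edgeR adjusted p = 0.105), without Treg replicate 2 (-0.79, edgeR adjusted p = 0.133) or with the replicate block. Asns, which makes asparagine, measured 98.7 and 110 CPM against 146 and 114 CPM and did not pass (-0.32), though it passed as lower with RLE scaling, with DESeq2, without a filter and without Th0 replicate 3 (-0.52, edgeR adjusted p = 0.0197). Of the 25 tested members, 7 were higher and 8 lower, with 4 of each without Treg replicate 2, 4 higher without Th0 replicate 3 and 5 lower without Th0 replicate 1. Of 11 tested metallothionein and zinc transport genes, 5 were lower and 2 higher (median -0.17). Both tested metallothioneins, which bind zinc and other metals, fell: Mt2 by 1.19 (SE 0.25), and Mt1, which measured 11.3 and 13.3 CPM in Treg and 56.4 and 30.5 CPM in Th0 (-1.82, SE 0.3).

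Heat shock genes fell, with 11 of 20 members of the heat shock and stress list lower and 2 higher (median -0.44). Hspa1b measured 247 and 286 CPM in Th0, 32.2 and 132 CPM in Th17, 6.22 and 6.44 CPM in Treg, and 6.84 and 1.95 CPM in naive cells (log2 fold change -5.39, SE 0.69, edgeR adjusted p = 0.000339). Its near copy Hspa1a behaved alike (-5.22, SE 0.68), and since both can share reads their separate values are uncertain. Both Th0 libraries lay above all others for Hspa1b, and the Th17 libraries differed 4-fold between themselves. The chaperone genes Hsph1 (-1.85, SE 0.25), Dnaja1 (-1.43, SE 0.17), Dnajb1 (-1.25, SE 0.16) and Hsp90aa1 (-1.1, SE 0.18) fell as well. Hsf1, the factor that drives them, measured 40.9 and 41.5 CPM against 48.3 and 44.8 CPM and did not pass. Hmox1 (heme oxygenase 1) rose by 2.29 (SE 0.14), from 10.6 and 14 CPM to 64.1 and 56 CPM. This was far below the 643 and 672 CPM of the naive libraries, which held many B cell and myeloid transcripts.

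Hspe1 and Hspd1, the mitochondrial chaperonin partners, are transcribed in opposite directions from a shared promoter and did not move together. Hspe1 measured 126 and 140 CPM in Treg and 436 and 330 CPM in Th0 (log2 fold change -1.53, SE 0.13, edgeR adjusted p = 5.88e-05). Hspd1 measured 412 and 312 CPM in Treg and 292 and 330 CPM in Th0, which overlapped (0.22, SE 0.15, edgeR adjusted p = 0.257). The 250 bases upstream of Hspe1 (chr1:55087898-55088147, plus strand, RefSeq, GRCm38.p6) are shown because they overlap the window upstream of Hspd1 (chr1:55087933-55088182, minus strand) in all but their first bases, with capitals marking matches to the heat shock element GAA-NN-TTC-NN-GAA (N is any base) on either strand, some of which overlap.
Hspe1: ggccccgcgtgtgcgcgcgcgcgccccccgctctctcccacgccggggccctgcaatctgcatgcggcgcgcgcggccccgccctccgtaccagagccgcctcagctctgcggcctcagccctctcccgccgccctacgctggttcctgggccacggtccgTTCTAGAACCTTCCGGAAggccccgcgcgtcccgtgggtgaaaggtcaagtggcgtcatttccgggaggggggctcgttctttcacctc
Of the 14 list members with a promoter in the table, these 2 genes held a match, beside 0.514% of all 27025 genes with a promoter. A match is a description of letters, and none in the window says only that they are not in these 250 bases.

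Interferon genes also split. Of 24 tested interferon-stimulated genes, 10 were higher and 3 lower (median 0.52), and 6 were higher without Th0 replicate 1 or Treg replicate 2. Their called share was 54.2%, beside 46.2% of all tested genes. Ifit3 measured 9.89 and 5.21 CPM in Treg, 0.66 and 0.693 CPM in Th0, and 0.587 and 0.53 CPM in Th17 (log2 fold change 3.48, SE 0.38, edgeR adjusted p = 0.000141). Rsad2 (viperin), another classic target of type I interferon, went the other way, at 1.64 and 1.07 CPM in Treg, 10.6 and 9.7 CPM in Th0, and 1.53 and 1.44 CPM in Th17 (-2.89, SE 0.25, edgeR adjusted p = 5.58e-05). Of 18 tested interferon-induced GTPases, which act against intracellular microbes, 7 were higher and 6 lower (median 0.27), and their reads can be shared among near copies. Ifi47 rose from 15.4 and 15.7 CPM to 76.6 and 58 CPM (2.12, SE 0.22) and Tgtp1 from 3.5 and 2.08 CPM to 22.3 and 13.3 CPM (2.66, SE 0.32). Gbp10 fell from 92.1 and 96.4 CPM to 7.93 and 6.13 CPM (-3.74, SE 0.16), and Gbp9 by 1.46 (SE 0.11). The rises thus lay among the immunity-related GTPases (Irgm1, Irgm2, Iigp1, Tgtp1, Tgtp2, Ifi47) and Gvin1, and the falls among the guanylate-binding protein genes (Gbp4, Gbp6, Gbp8, Gbp9, Gbp10, Gbp11). Neither family moved as a whole, since Igtp of the former and Gbp2, Gbp3, Gbp5 and Gbp7 of the latter did not pass. Irgm1 did not pass without Th0 replicate 3 (0.53, edgeR adjusted p = 0.0523).

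The interferon-stimulated response element was searched as GAAA-NN-GAAA on both strands of the 250 upstream bases. It stood in 3.46% of all 27025 genes with a promoter in the table, in 8 of 17 interferon-stimulated genes and in 9 of 10 GTPase genes. These 9 were Gbp2, Gbp3, Gbp5, Gbp7, Irgm1, Irgm2, Igtp, Tgtp1 and Tgtp2. None of the falling guanylate-binding protein genes was among them, and nearly all of those had no promoter to search. Ifit3 and Tgtp1, which rose, and Rsad2, which fell, each held it, and their windows (RefSeq, GRCm38.p6) are shown to set the opposite changes beside the same letters, with matches in capitals. They lie at chr19:34583279-34583528, plus strand, at chr11:48992247-48992496, minus strand, and at chr12:26456453-26456702, minus strand.
Ifit3: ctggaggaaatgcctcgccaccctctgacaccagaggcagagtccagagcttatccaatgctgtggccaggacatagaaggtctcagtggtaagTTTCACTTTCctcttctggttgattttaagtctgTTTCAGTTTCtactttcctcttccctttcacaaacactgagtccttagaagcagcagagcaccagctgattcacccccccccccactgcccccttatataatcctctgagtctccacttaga
Tgtp1: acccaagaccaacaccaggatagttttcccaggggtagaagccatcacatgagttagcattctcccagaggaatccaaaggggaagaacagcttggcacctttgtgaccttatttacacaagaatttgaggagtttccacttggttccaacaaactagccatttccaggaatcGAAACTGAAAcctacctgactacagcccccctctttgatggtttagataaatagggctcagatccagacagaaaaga
Rsad2: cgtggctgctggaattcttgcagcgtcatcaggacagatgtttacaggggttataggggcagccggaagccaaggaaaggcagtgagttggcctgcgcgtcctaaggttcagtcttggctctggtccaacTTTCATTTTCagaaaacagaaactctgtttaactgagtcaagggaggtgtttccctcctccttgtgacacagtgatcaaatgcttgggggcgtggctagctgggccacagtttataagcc
Ifit3 held 2 matches, and Tgtp1 and Rsad2 held 1 each. A match is a description and no evidence of binding.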

How the data were processed

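The authors deposited gene counts and FPKM values (fragments scaled by gene length and library size) in 1 table of 34745 genes for 8 libraries, and the submitters' processing notes name RSEM and Bowtie2, with mm10 and GRCm38.p6 as builds. Whether counting used strand is not given in the sources used here. Coordinates are those of the deposited table. The deposited counts were whole numbers and entered edgeR 4.0.16 under R 4.3.3 (quasi-likelihood test, TMM scaling, filterByExpr, Benjamini-Hochberg adjustment over 14690 genes), with all 8 libraries in 1 fit, 4 residual degrees of freedom and a common biological coefficient of variation of 0.13. The deposited FPKM values served to compare levels between genes and to give the levels of Itgam, Tyrobp and the Klra genes. Totals ran from 12504463 to 22443368 counts. Levels in CPM use TMM-scaled library sizes. The tests were tried on simulated counts.

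Genes named were the 10 highest and 10 lowest called genes that reached 10 CPM, fixed genes, up to 5 called members of each gene list, and marker genes. Other list members named were chosen after their values were seen. The lists and comparison were chosen with earlier results of these data known. Alternatives were other scalings, DESeq2 1.42.0, limma-voom 3.58.1, other filters, a test against 2-fold, the replicate number as a block, a fit of the groups compared alone, removal of marker genes of other cells, and each library left out in turn. Upstream sequences came from RefSeq, GRCm38.p6. Some genes are not reported here.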

Additional observations from a re-analysis of the deposited data

How the results depend on the processing

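Treg against Th0 gave 6790 calls, and between 4637 and 7081 when 1 library was left out, with the fewest without Treg replicate 2. A test against a 2-fold change (glmTreat) gave 930 calls, 664 higher and 266 lower. Treg against Th17 gave 4294 calls, and between 1878 and 4338 when 1 library was left out, with 2444 without Th17 replicate 3 and 2877 without Treg replicate 3, and the 2-fold test gave 456, of which 178 were higher and 278 lower. Leaving out 1 library gave 852 to 2185 higher and 1026 to 2237 lower there. The deviations of same-numbered libraries from their group means correlated at 0.0905 for Treg 2 and Th17 2 and at -0.0225 for Treg 3 and Th0 3. With 2 libraries a group, these values cannot show whether same-numbered libraries were prepared together. With the replicate block, 5599 genes were called for Treg against Th0 and 4165 for Treg against Th17. With library totals alone, 4873 genes were higher and 2201 lower. The log2 changes of 7 genes that did not pass changed sign, none to a call. With library totals alone, Aurkb gave 0.11, Bub1b 0.14, Ikzf1 0.01, Mki67 0.12 and Tnfrsf18 0.14, and with upper-quartile scaling Bub1b and Tnfrsf18 gave 0.01. With the replicate block, Aurkb gave 0.07 and Trac -0.06. Trac also gave -0.05 with RLE scaling or DESeq2, -0.03 without a filter and -0.04 in a fit of the 2 groups. With 1 library left out, Trac ranged from -0.05 to 0.07, Bub1b from -0.21 to 0.1, Mki67 from -0.18 to 0.02, Tnfrsf18 from -0.12 to 0.09 and Cish from -0.34 to 0.66. The cause of these differences was not tested. Depth limits genes under about 0.2 CPM, where 3 counts or fewer stand behind a value.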
